A study of Gallus gallus with 9 samples.

Results

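Semaphorins are guidance proteins, either secreted or held in the membrane, that steer axons and migrating cells. Plexins are their signalling receptors, and neuropilins are co-receptors that let secreted class 3 semaphorins act through plexins of the A group and also bind vascular endothelial growth factors. In mice, SEMA3A acting through NRP1 guides the olfactory and vomeronasal axons along which neurons producing gonadotropin-releasing hormone (GnRH) leave the nose. The family was examined here through 10 genes: the semaphorins SEMA3A, SEMA3C, SEMA3D, SEMA3E, SEMA5A and SEMA6A, the neuropilins NRP1 and NRP2, and the plexins PLXNA1 and PLXNA2. They were represented by every probe set that the platform annotation gives exactly 1 symbol, that of one of these genes. These are 10 of the 13008 genes so named on the array, and 37 of its 37693 chicken probe sets.

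The samples were olfactory placodes dissected from chick (Gallus gallus) embryos at stages 16, 18 and 20 of the Hamburger and Hamilton series (HH16, HH18 and HH20), when, per the series title, GnRH neurons begin to form. Each stage had 3 biological replicates, read on 1 Affymetrix chicken array each, and no genotype, transgene or treatment is named for any stage. The labels do not give the number of embryos in a sample or the day on which it was taken, so the spread behind each p-value is that of these samples alone. Of 15 marker genes of placode and olfactory epithelium, 12 had a probe set and each lay above background on at least 1 array, with a summed level of 5368 to 5928 at HH16, 5730 to 5979 at HH18 and 5534 to 5829 at HH20.

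The arrays differed in brightness. The trimmed mean intensity ranged from 68.75 to 162.8, with HH16 replicate 1 the brightest, so values were quantile normalized. A log2 level below is a normalized log2(intensity + 16), and a log2 change is the difference of 2 stage means on that scale, which understates the change of dim probe sets. A probe set was above background where it exceeded the 99th percentile of the 689 virus probe sets of its array; HH18 replicate 2 had the highest such background, at 13.9 against 6.17 to 8.70 on the other arrays. Tested probe sets numbered 24489, among them 27 of the 37 family probe sets, and every family gene kept at least 1. The 10 untested family probe sets were above background on no array. Different probe sets of a gene share a target, so they are not independent observations, and the level of a probe set says nothing of its abundance against another probe set.

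Between HH16 and HH20, 8 of the 27 tested family probe sets passed the test (limma, adjusted p under 0.05 over all tested probe sets), 4 higher and 4 lower at HH20. That was 29.6% of the family's tested probe sets, where 10.9% of all tested probe sets were called, 5.81% higher and 5.10% lower. These genes and the lists below were chosen with earlier results of these data known. A share above that of all probe sets is therefore a description and not a test. The 4 higher probe sets belonged to SEMA3D, SEMA5A and NRP1, and the 4 lower ones were the 4 probe sets of PLXNA2. Taking the brightest tested probe set of each gene, 3 genes rose and 1 fell of 10, against 14.0% of 10630 genes called in the same way. The median log2 change over the 27 probe sets was 0.09, with 18 positive and 9 negative, and that over all tested probe sets was -0.004. Because the placode was measured in bulk, fewer cells of a type and less RNA per cell cannot be told apart in any of these changes.

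**Figure D1:**
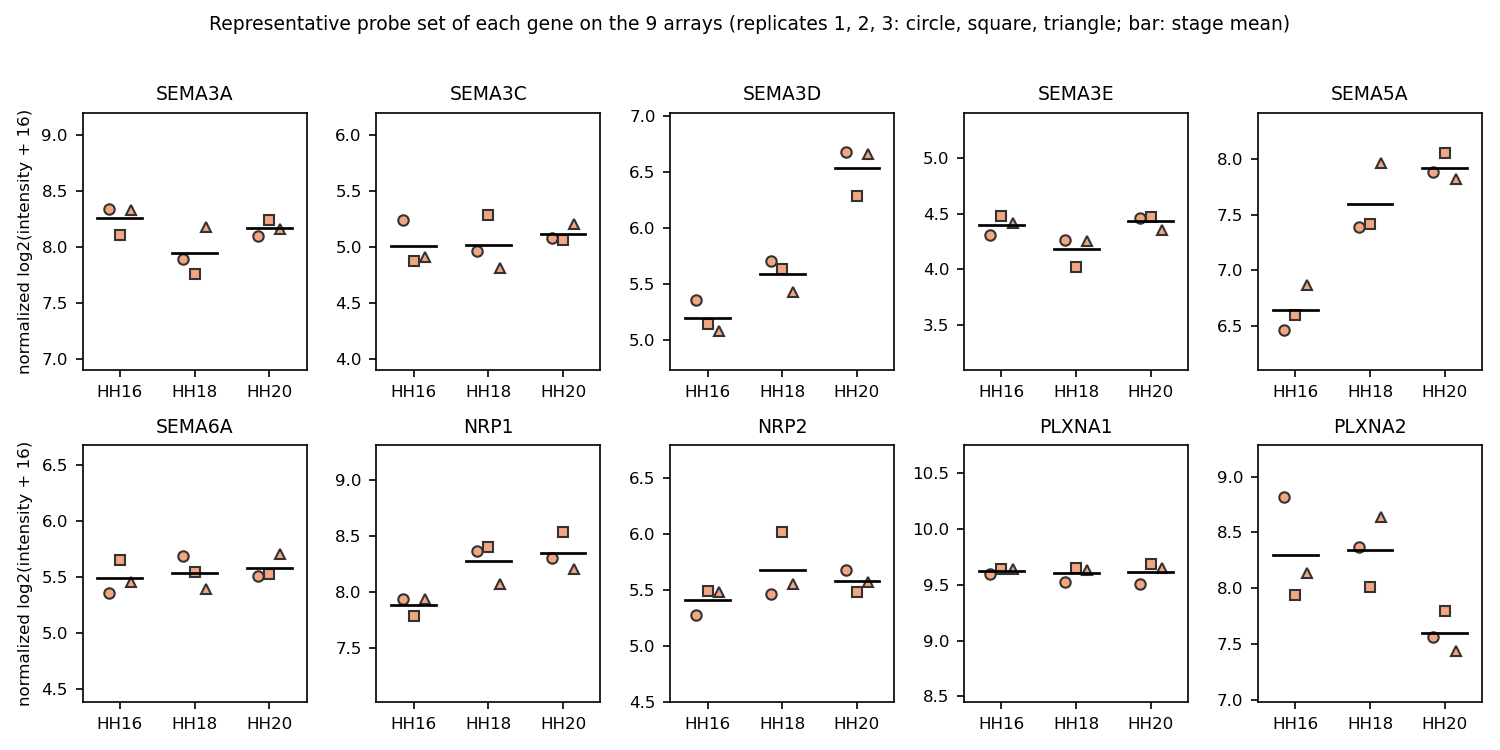
Normalized log2(intensity + 16) on each of the 9 arrays for the brightest tested probe set of each gene, at HH16, HH18 and HH20 (symbols: replicates 1, 2 and 3; bars: stage means; each panel spans the same log2 range). The HH20 arrays lie above the HH16 arrays for SEMA3D, SEMA5A and NRP1 and below them for PLXNA2.

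Among the 4 secreted ligands, SEMA3D was the one that passed. SEMA3D is a secreted semaphorin that binds neuropilins and guides axons and endothelial cells in several vertebrates. Its brighter tested probe set had log2 levels of 5.36, 5.14 and 5.08 on the HH16 arrays, 5.71, 5.63 and 5.43 on the HH18 arrays, and 6.68, 6.28 and 6.66 on the HH20 arrays. The 3 stages did not overlap: each HH18 array lay above every HH16 array and each HH20 array above every HH18 array. SEMA3D was 2.54-fold higher at HH20 than at HH16 (log2 change 1.35 ± 0.15, SE, n = 3 per stage, limma adjusted p = 2.1e-05). The size of this change depended on the processing, from 0.74 to 1.87 over the 22 alternatives run, though each passed. The HH16 intensities of this probe set were 45.9, 16.4 and 14.2, where 16 was added before the log. The order of its mean levels was HH16 at 5.19 ± 0.15, HH18 at 5.59 ± 0.14 and HH20 at 6.54 ± 0.22 (SD, n = 3). The neighbours HH18 and HH20 differed (0.95 ± 0.15, adjusted p = 0.0088), while HH18 against HH16 did not pass (0.40 ± 0.15, adjusted p = 0.15). The difference between the later and the earlier step was 0.55 ± 0.26 and did not pass either (adjusted p = 0.51). The call of HH20 against HH18 was lost without HH20 replicate 1 (adjusted p = 0.090) and without HH20 replicate 3 (adjusted p = 0.075). It was also lost for the mean of both tested probe sets (0.54, adjusted p = 0.089).

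The dimmer tested SEMA3D probe set gave 4.52, 4.60 and 4.62 at HH16, 4.73, 5.68 and 4.81 at HH18, and 5.20, 5.34 and 5.10 at HH20. Its HH20 arrays lay above its HH16 arrays, with a log2 change of 0.63 ± 0.20 that missed the threshold (adjusted p = 0.051). HH20 against HH18 gave 0.14 ± 0.20 on this probe set (adjusted p = 0.89). The high HH18 value was that of replicate 2, the array with the highest background. Its intensity there was 35.2, where the background was 13.9, and the cause of the high value was not tested. The third SEMA3D probe set was above background on no array.

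SEMA3A, the founding repellent semaphorin first isolated from chick brain as collapsin, did not pass in any of the 3 stage comparisons. Its log2 levels were 8.34, 8.11 and 8.34 at HH16, 7.90, 7.76 and 8.18 at HH18, and 8.10, 8.24 and 8.16 at HH20. The HH20 and HH16 arrays overlapped, and the log2 change was -0.09 ± 0.12 (adjusted p = 0.71, 95% confidence interval -0.35 to 0.16). HH18 had the lowest mean, at -0.32 ± 0.12 against HH16 (adjusted p = 0.16), a value that passed the threshold with HH18 replicate 3 left out (-0.43, adjusted p = 0.048). The third stage comparison, HH20 against HH18, gave 0.22 ± 0.12 (adjusted p = 0.62).

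SEMA3C, a secreted semaphorin that acts through both neuropilins, did not pass on either probe set. On the brighter of its 2 probe sets the mean log2 levels were 5.01 ± 0.20, 5.02 ± 0.24 and 5.12 ± 0.08 at HH16, HH18 and HH20, and the highest array was HH18 replicate 2 at 5.29. On the dimmer probe set they were 4.75 ± 0.27, 4.88 ± 0.13 and 5.09 ± 0.12. The HH20 against HH16 change was 0.11 ± 0.16 on the brighter (95% confidence interval -0.22 to 0.44) and 0.34 ± 0.16 on the dimmer one (95% confidence interval 0.005 to 0.67), where the adjusted p of 0.20 missed the threshold. SEMA3E, which binds PLXND1 without a neuropilin, was above background on 0 of 9 arrays, with intensities of 0.5 to 7.4, and has only an upper bound in this tissue.

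The 4 class 3 genes lie on 1 chromosome in the RefSeq annotation of the assembly GRCg7b, where SEMA3D, SEMA3A and SEMA3E are consecutive protein-coding genes. SEMA3C follows after 3 others, PCLO, CACNA2D1 and HGF. PCLO and HGF had no tested probe set. On the brightest of its 3 tested probe sets, CACNA2D1, a calcium channel subunit, had mean log2 levels of 6.51, 6.82 and 7.10 at HH16, HH18 and HH20. There it was higher at HH20 than at HH16 (0.60 ± 0.17, limma adjusted p = 0.032). Its other tested probe sets were not compared, and no alternatives were run for this gene. The log2 changes at HH20 against HH16 of the adjacent genes SEMA3D, SEMA3A and SEMA3E were 1.35, -0.09 and 0.03, the last measured below background.

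Of the membrane semaphorins, SEMA5A rose. SEMA5A carries thrombospondin repeats outside the cell, attracts or repels axons depending on context, and uses plexins of the A group as receptors in mice. Its brightest probe set had log2 levels of 6.47, 6.60 and 6.87 at HH16, 7.39, 7.42 and 7.96 at HH18, and 7.88, 8.05 and 7.81 at HH20. All HH18 and HH20 arrays lay above all HH16 arrays, and HH18 replicate 3 reached into the range of HH20. The level was 2.41-fold higher at HH20 than at HH16 (1.27 ± 0.16, adjusted p = 4.5e-05) and 1.92-fold higher at HH18 than at HH16 (0.94 ± 0.16, adjusted p = 0.0023). HH20 against HH18, at 7.92 ± 0.12 and 7.59 ± 0.32 (SD, n = 3), did not pass (0.32 ± 0.16, adjusted p = 0.55). The unadjusted limma p was 0.053, so a difference between these stages was neither shown nor excluded. The HH18 call was lost when arrays were centred on their medians in place of quantile normalization (0.64, adjusted p = 0.14).

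The probe sets of SEMA5A did not move alike. A dimmer one had 4.66, 4.20 and 4.03 at HH16, 4.75, 4.69 and 4.89 at HH18, and 5.28, 5.54 and 5.03 at HH20. It was above background on 1, 2 and 3 arrays of the stages in turn, and it was higher at HH20 than at HH16 (0.98 ± 0.17, adjusted p = 0.0014). With most HH16 arrays not above background, the size of this change rests on the pseudocount: it was 2.69 with 1 and 0.36 with 64 in place of 16, and passed with each. The other 3 tested probe sets did not pass, with changes of 0.09 ± 0.18, -0.02 ± 0.18 and -0.13 ± 0.16. The first of these was above background on 1 array of each stage, and the third on 0, 2 and 1 arrays of the stages in turn. The second was above background on all 9 arrays, with stage means of 5.30, 5.22 and 5.29. The remaining 4 of 9 SEMA5A probe sets were above background on no array. Averaged over the 5 tested probe sets, an alternative chosen after seeing that they differ, SEMA5A changed by 0.44 at HH20 against HH16 (adjusted p = 0.016) and did not pass at HH18 against HH16 (0.30, adjusted p = 0.12). That mean includes the probe sets that were above background on few arrays.

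**Figure D2:**
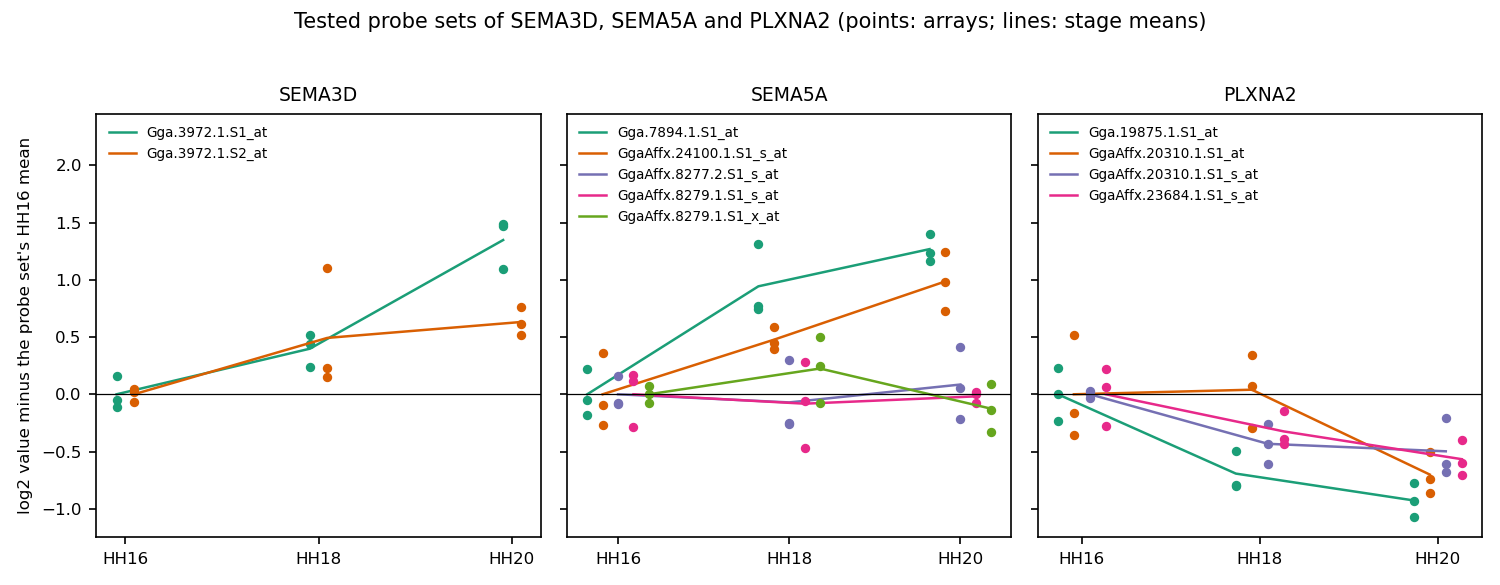
Difference of each array from the HH16 mean of the same probe set (log2) at HH16, HH18 and HH20, for the tested probe sets of SEMA3D, SEMA5A and PLXNA2 (points: arrays; lines: stage means; the keys give the probe set names of the array). For SEMA5A 2 probe sets climb and 3, not all of them above background on every array, stay near 0. The 4 PLXNA2 probe sets end below 0 at HH20.

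SEMA6A, a membrane semaphorin that binds PLXNA2 and PLXNA4 directly, did not pass on any of its 3 tested probe sets. Its brightest had mean log2 levels of 5.49 ± 0.15, 5.54 ± 0.15 and 5.58 ± 0.11 at HH16, HH18 and HH20. The HH20 against HH16 change was 0.09 ± 0.14 (95% confidence interval -0.21 to 0.39). The others gave 0.17 ± 0.15 and 0.11 ± 0.16. The last of these was above background on 0, 3 and 2 arrays of the stages in turn. At HH18 against HH16 it changed by 0.40 ± 0.16, which did not pass (limma adjusted p = 0.17).

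The co-receptor NRP1, which has a short intracellular part and pairs with plexins to bind SEMA3A, rose on its brighter probe set. That probe set had log2 levels of 7.94, 7.79 and 7.94 at HH16, 8.37, 8.41 and 8.07 at HH18, and 8.30, 8.54 and 8.21 at HH20. The HH16 arrays lay below all others, and the HH18 and HH20 arrays overlapped. The level was 1.38-fold higher at HH20 than at HH16 (0.46 ± 0.12, adjusted p = 0.020), with HH18 against HH16 at 0.39 ± 0.12 (adjusted p = 0.078) and HH20 against HH18 at 0.07 ± 0.12 (adjusted p = 0.91). The other NRP1 probe set did not pass at 0.14 ± 0.14 (adjusted p = 0.60). The called probe set is of the kind designed for more than 1 transcript, and the other is not. The NRP1 call was lost in 3 of the 6 fits that left out an HH16 or HH20 array: HH16 replicate 2, HH20 replicate 1 and HH20 replicate 2, at adjusted p of 0.081, 0.058 and 0.12. It was also lost for the mean of both probe sets (0.30, adjusted p = 0.070). The call depended on the normalization too: with arrays centred on their medians the NRP1 change was 0.39 (adjusted p = 0.52).

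NRP1 is also known from blood vessels, as a receptor for vascular endothelial growth factor. Of 12 tested vessel markers, 2 (CDH5 and EGFL7) rose and 0 fell at HH20 against HH16 (16.7%, where 14.0% of genes were called), with a median log2 change of 0.21, and TAL1 was above background on no array. The summed level of the vessel markers was 183 to 365.3 at HH16, 325.2 to 540.9 at HH18 and 499.1 to 562 at HH20. KDR, the vascular endothelial growth factor receptor that marks endothelium, was above background on 2 HH16 arrays, 1 HH18 array and 1 HH20 array, with a change of -0.08 ± 0.16. The part of vessel cells in the NRP1 change was not tested.

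NRP2, the co-receptor favoured by SEMA3C and SEMA3F, did not pass. On its brightest probe set the mean log2 levels were 5.42 ± 0.12, 5.68 ± 0.30 and 5.58 ± 0.10 at HH16, HH18 and HH20, with HH18 replicate 2 the highest array at 6.01. The HH20 against HH16 change was 0.16 ± 0.16 on this probe set and 0.18 ± 0.15 on the other tested one, which was above background on 6 of 9 arrays.

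PLXNA2, a signalling receptor for neuropilin-bound semaphorins and for SEMA6A, was the family gene that fell. Its next-to-brightest probe set had log2 levels of 7.87, 8.10 and 7.64 at HH16, 7.37, 7.07 and 7.08 at HH18, and 6.93, 6.79 and 7.09 at HH20. The HH16 arrays lay above all others. The level was 1.90-fold lower at HH20 than at HH16 (log2 change -0.93 ± 0.14, adjusted p = 0.00039) and already lower at HH18 (-0.69 ± 0.14, adjusted p = 0.010). HH20 against HH18 did not pass (-0.23 ± 0.14, adjusted p = 0.67), which does not exclude a difference. The HH18 call was lost without HH16 replicate 2 (adjusted p = 0.059) and without HH18 replicate 2 (adjusted p = 0.056).

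The brightest PLXNA2 probe set followed another course. It had log2 levels of 8.82, 7.94 and 8.14 at HH16, 8.37, 8.01 and 8.64 at HH18, and 7.56, 7.80 and 7.44 at HH20. The HH18 and HH16 arrays overlapped (0.04 ± 0.19), and the HH20 arrays lay below both. HH20 was lower than HH16 (-0.70 ± 0.19, adjusted p = 0.024), while HH20 against HH18 missed the threshold (-0.74 ± 0.19, adjusted p = 0.13). Without HH16 replicate 1, the highest array, the HH20 against HH16 change was -0.44 (adjusted p = 0.10) and HH20 against HH18 passed at -0.74 (adjusted p = 0.030). The HH20 against HH16 call was also lost without HH20 replicate 1 or HH20 replicate 3, at adjusted p of 0.086 and 0.10.

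The 2 dimmer PLXNA2 probe sets were also lower at HH20 than at HH16. The dimmest changed by -0.50 ± 0.16 (adjusted p = 0.048) and the other by -0.57 ± 0.16 (adjusted p = 0.028), with no overlap between the HH20 and HH16 arrays on either. Both calls were fragile: the first was lost with any of 5 of the 6 HH16 and HH20 arrays left out (adjusted p up to 0.21) and the second with any of 4 of them (adjusted p up to 0.11). Averaged over its 4 probe sets, PLXNA2 changed by -0.67 ± 0.10 at HH20 against HH16 (adjusted p = 0.00091 over 10630 genes), and HH18 against HH16 did not pass (-0.35, adjusted p = 0.066).

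PLXNA1, the plexin through which SEMA3A and NRP1 signal in many neurons, did not pass in any comparison. Its brightest probe set had log2 levels of 9.59, 9.64 and 9.64 at HH16, 9.52, 9.65 and 9.63 at HH18, and 9.51, 9.69 and 9.65 at HH20. The stages overlapped and the HH20 against HH16 change was -0.01 ± 0.08, with a 95% confidence interval of -0.18 to 0.16. The 4 other tested PLXNA1 probe sets were dim, with stage means of 4.12 to 4.89, and their changes of -0.09 to 0.16 did not pass. The remaining 3 of 8 were above background on no array.

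**Figure D3:**
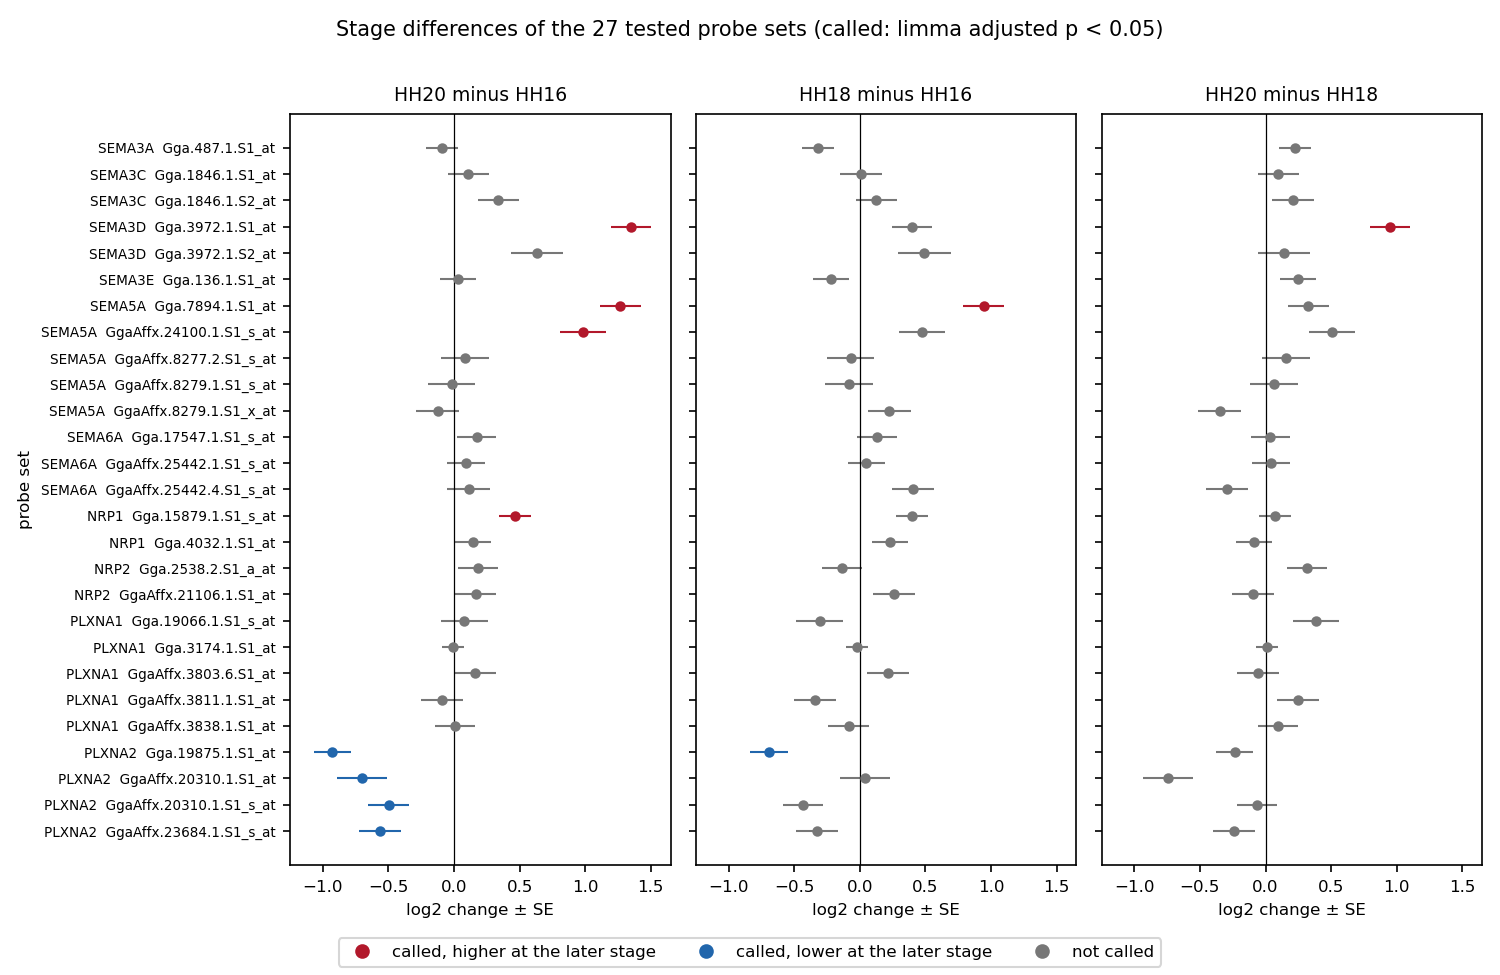
Log2 change ± SE of the 27 tested family probe sets for HH20 minus HH16, HH18 minus HH16 and HH20 minus HH18 (red: called higher; blue: called lower; grey: not called). Of the 27, 8 were called in the first comparison, 2 in the second and 1 in the third.

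The steps taken apart gave fewer calls; the 3 stage comparisons share arrays, so their values are not independent. In HH18 against HH16, 2 of 27 family probe sets passed, that of SEMA5A higher and the next-to-brightest of PLXNA2 lower. That was 7.41%, near the 4.54% of all tested probe sets (5.89% for 1 probe set per gene), so the count sets the family little apart in this step. In HH20 against HH18, 1 of 27 passed, that of SEMA3D. That was 3.7% against 0.359% of all tested probe sets (0.470% for 1 probe set per gene). The difference between the steps passed in 0 of 27 by limma, where 0.0327% of all tested probe sets were called. It is therefore not shown that the later rise of SEMA3D and the earlier rise of SEMA5A differ in timing from an even course.

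Genes with the most similar course were sought for SEMA3D, SEMA5A, NRP1 and PLXNA2 on their brightest probe sets, as the smallest root-mean-square difference of centred log2 levels over the 9 arrays among 18846 probe sets of other named genes. Nearest to SEMA3D were ISL2, a LIM homeodomain factor of motor and other neurons, SLITRK4, a neuronal membrane protein, and PCDH17, a protocadherin, each at 0.17, where the median over all candidates was 0.61. ISL2 changed by 1.46, SLITRK4 by 0.98 and PCDH17 by 1.36 on the log2 scale at HH20 against HH16. Nearest to SEMA5A were the secreted leucine-rich protein LRRC17 (0.14), the RNA-binding protein RBM24 (0.14) and the homeobox factor PROX1 (0.15), against a median of 0.60. Nearest to NRP1 were IKBIP, FRMD4B and TGFBI (0.061 to 0.066, median 0.30), and nearest to PLXNA2 were DDTL, PIGF and HAUS8 (0.16 to 0.20, median 0.47). At HH20 against HH16, DDTL changed by -0.70, PIGF by -0.34 and HAUS8 by -0.42, where the brightest PLXNA2 probe set changed by -0.70. The PLXNA2 match holds for its brightest probe set, which changed by 0.04 at HH18 against HH16. Its other probe sets changed by -0.69, -0.43 and -0.32 there. All these similarities are descriptions over shared arrays and carry no test. The nearest of 18846 candidates lie below the median by selection.

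The rest of the pathway was followed through 4 lists totalling 93 genes, 1 probe set per gene. Of 14 other semaphorins, 10 were on the array, 7 were tested and 1 rose at HH20 against HH16 (14.3%, where 14.0% of genes were called). That was SEMA6D, a membrane ligand of PLXNA1 known from chick heart development, at log2 levels of 8.70, 8.56 and 8.60 at HH20 against 8.17, 8.32 and 8.27 at HH16 (0.37 ± 0.10, adjusted p = 0.024). The SEMA6D call was lost with any of 5 of these 6 arrays left out (adjusted p up to 0.12). SEMA4G was above background on no HH18 array and on 3 HH16 arrays. It was called lower at HH18 than at HH16, with a measured log2 change of -0.79 (limma adjusted p = 0.013). That call was lost without HH16 replicate 2, HH16 replicate 3 or HH18 replicate 2 (adjusted p = 0.056, 0.055 and 0.054). As a bound, SEMA4G was at least 1.25-fold lower at HH18. The bound sets the HH16 mean against the lowest signal above background on each HH18 array, and was not itself tested. SEMA5B, the close relative of SEMA5A, had mean log2 levels of 9.93, 10.17 and 9.88 at HH16, HH18 and HH20. It did not pass at HH20 against HH16 (-0.05 ± 0.17), which does not exclude a difference.

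Of 7 other plexins, 5 were on the array and tested, and 3 of them passed at HH20 against HH16 (60%, where 14.0% of genes were called). PLXNC1, the receptor for SEMA7A, was lower, with log2 levels of 9.16, 8.95 and 9.15 at HH20 against 9.72, 9.73 and 9.73 at HH16 (-0.64 ± 0.11, adjusted p = 0.00092). PLXND1, the receptor for SEMA3E in vessels and neurons, was higher at HH20 (9.23, 9.05 and 9.13) than at HH16 (8.48, 8.75 and 8.85), with a change of 0.45 ± 0.12 (adjusted p = 0.021). PLXND1 was also higher at HH18 than at HH16 (0.46 ± 0.12, adjusted p = 0.036), but median centring of the arrays left a change of 0.10 (adjusted p = 0.84), and the intensities as deposited gave 0.016 (adjusted p = 0.99). PLXNB3, a plexin reported to bind SEMA5A, was higher at HH20 by 0.34 ± 0.10 (adjusted p = 0.038). The PLXND1 call at HH20 was lost without HH16 replicate 1, HH20 replicate 1 or HH20 replicate 3 (adjusted p up to 0.10), its call at HH18 with any of 7 arrays left out (adjusted p up to 0.15), and the PLXNB3 call with any of 5 (adjusted p up to 0.13). With arrays centred on their medians, 0 of these plexins passed at HH20 against HH16, PLXNC1 at -0.74 with an adjusted p of 0.0501, and as deposited 0 passed. PLXNA4 (0.35 ± 0.17) and PLXNB2 (0.10 ± 0.14) did not pass.

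**Figure D4:**
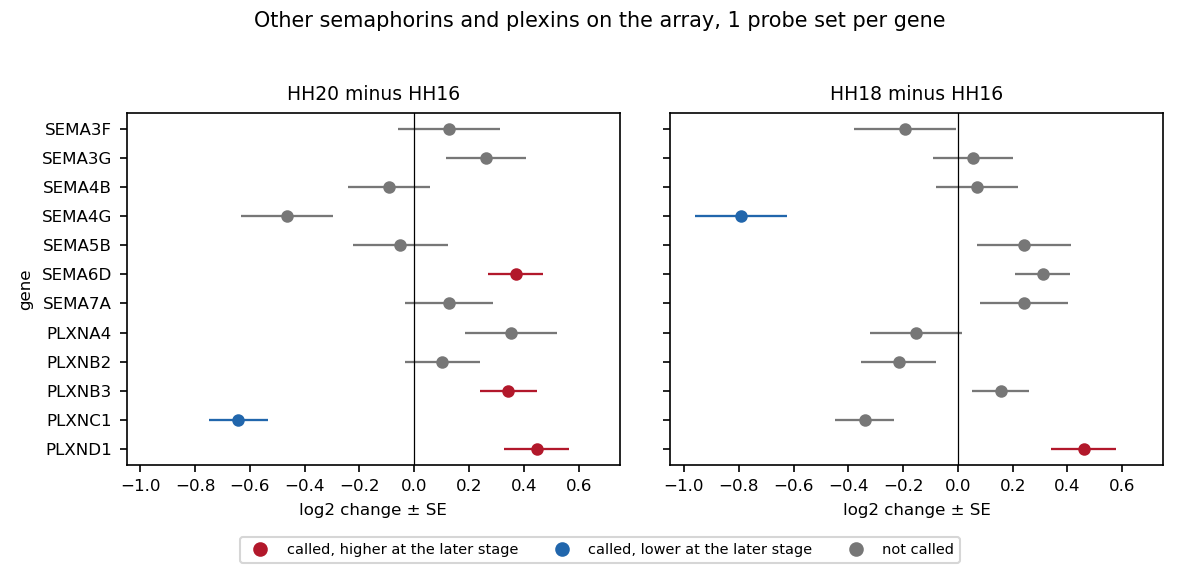
Log2 change ± SE of the 7 other semaphorins and 5 other plexins tested, for HH20 minus HH16 and HH18 minus HH16 (red: called higher; blue: called lower; grey: not called). PLXNC1 is the plexin of this set that was lower at HH20, and SEMA4G was measured below background at HH18.

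Among 18 tested co-receptors and other partners of neuropilins and plexins, 2 rose and 1 fell at HH20 against HH16. That was 16.7%, where 14.0% of genes were called. At HH18 against HH16, 0 passed by limma, where 5.89% of genes were called. CNTN2, an axonal immunoglobulin-domain protein, had log2 levels of 5.45, 5.23 and 5.27 at HH20 against 4.71, 4.88 and 4.80 at HH16 (0.52 ± 0.14, adjusted p = 0.024). GPC1, a heparan sulfate proteoglycan, changed by 0.24 ± 0.07 (adjusted p = 0.027), and PTK7, a pseudokinase of planar cell polarity, by -0.52 ± 0.11 (adjusted p = 0.0070). The CNTN2 and GPC1 calls were each lost with any of 5 of the 6 arrays left out (adjusted p up to 0.12 and 0.10). The growth factor genes VEGFA, VEGFC and VEGFD, whose products bind neuropilins or their partner receptors, did not pass (0.21 ± 0.16, -0.01 ± 0.12 and 0.03 ± 0.08).

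Of 35 tested plexin effectors and cytoskeletal relays, 4 rose and 0 fell at HH20 against HH16. That was 11.4%, where 14.0% of genes were called, with a median change of -0.01. LIMK2, the kinase that inactivates the actin-severing protein cofilin, had 9.43, 9.35 and 9.23 at HH20 against 8.76, 8.78 and 8.84 at HH16 (0.54 ± 0.09, adjusted p = 0.00081). CRMP1, a mediator of the growth cone collapse that SEMA3A causes, changed by 0.35 ± 0.09 (adjusted p = 0.021) and the GTPase RAC1 by 0.26 ± 0.07 (adjusted p = 0.022). At HH18 against HH16, RAC1 (0.28 ± 0.07, adjusted p = 0.029) and CHN1, a GTPase-activating protein for RAC1 (0.54 ± 0.14, adjusted p = 0.039), passed. That was 5.71% of the list, where 5.89% of genes were called. Leaving out 1 array ended the calls of CRMP1 in 4 and RAC1 in 5 of 6 cases at HH20 against HH16, with adjusted p up to 0.094, and LIMK2 kept its call in each. The count was 1 with arrays scaled to 1 trimmed mean and 0 both as deposited and with arrays centred on their medians, where LIMK2 changed by 0.43 (adjusted p = 0.40). At HH18 against HH16, leaving out 1 array ended the call of RAC1 in 4 cases and that of CHN1 in 7, with adjusted p up to 0.12. For the relays DPYSL2 (-0.15 ± 0.09), RHOA (0.10 ± 0.07) and LIMK1 (-0.52 ± 0.17, adjusted p = 0.066) the threshold was missed.

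Markers of cell types were also compared between the stages. Of 11 tested neuronal markers, 11 rose at HH20 against HH16 (100%, where 14.0% of genes were called). Their summed level was 1589 to 2042 at HH16, 2406 to 2513 at HH18 and 3084 to 3371 at HH20. GAP43 was above background on no array. Of 12 tested placode and olfactory epithelium markers, 2 rose and 1 fell at HH20 against HH16 (25%, where 14.0% of genes were called). Of 12 mesenchyme markers 4 rose and 0 fell (33.3%, where 14.0% of genes were called), with TWIST2 above background on no array. Their summed level was 2872 to 3201, 3222 to 4323 and 3668 to 4214 in stage order. Of 7 neural crest and glia markers 1 rose and 3 fell (57.1%, where 14.0% of genes were called), with a median log2 change of -0.06. Their summed level was 2896 to 3371, 2451 to 2772 and 2384 to 2704 in stage order. Rises without falls were also counted for 3 of 6 surface ectoderm, 2 of 7 macrophage and leukocyte, and 1 of 4 erythrocyte markers, where 14.0% of genes were called. Their part in the changes of the family was not tested. No alternatives were run for the counts of cell type markers.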

How the data were processed

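Total RNA of 9 placode samples was amplified, labelled with biotin and hybridised to 1 array each, per the labels' protocols. Each deposited value is a linear intensity of 1 probe set on 1 array; MAS5 is the tool named in the submitters' processing notes, and its version and scaling are not given in the sources used here. The number of arrays limits the precision. Controls (96), reporters (57) and virus probe sets (689) were left out.

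The intensities were transformed to log2(intensity + 16) and quantile normalized over the chicken probe sets. Probe sets were tested where 3 or more of the 9 arrays had them over the array's 40th percentile. The linear model held a mean per stage (limma 3.58.1 in R 4.3.3; lmFit, then eBayes with a trend in intensity), with 6 residual and 11.1 prior degrees of freedom, and two-sided p-values were adjusted by Benjamini-Hochberg over 24489 probe sets at a threshold of 0.05. Errors of changes are standard errors and those of levels are SDs over 3 arrays. Summed levels of markers are sums of normalized values turned back to the linear scale, less 16.

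Gene names come from the platform annotation, and 0 symbols differed from RefSeq (GRCg7b). No coordinates or sequences are given. The brightest tested probe set stood for a gene in the lists. Every family probe set is described, and genes of the lists are named if called, up to 6 per list, with 1 exception below and a few relatives added for context after their values were seen. The values of 1 called gene of the effector list are not reported here. The members and lists were chosen with earlier results of these data known. Alternatives changed the scaling, pseudocount, filter, arrays, block and weights.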

Additional observations from a re-analysis of the deposited data

How the results depend on the processing

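SEMA3D at HH20 against HH16 passed under all 22 alternatives run. With intensities as deposited, 2 family probe sets were called at HH20 against HH16 (2 higher, 0 lower), 0 at HH18 against HH16 and 0 at HH20 against HH18, while counts over all probe sets were 176, 44 and 10 against 2673, 1111 and 88. The brightest SEMA5A probe set (1.23, adjusted p = 0.12) and NRP1 (0.39, adjusted p = 0.9998) missed the threshold there. So did PLXNA2 (-0.99, adjusted p = 0.42 for its next-to-brightest probe set). With arrays centred on their medians, family counts were 5 (4 higher, 1 lower), 1 and 1. Counts over all probe sets then were 805, 596 and 90. At HH20 against HH16, 0 genes of the 4 lists of relatives, partners and effectors passed in either scaling. All probe sets shifted by a median of -0.25 (as deposited) or -0.17 (centred) at HH18 against HH16, and RAC1 there turned to -0.10 and -0.020; the cause was not tested. Without a filter 5 of 37 family probe sets (4 higher, 1 lower) were called at HH20 against HH16, where 2033 of all 37693 were. Leaving out probe sets that were designed for more than 1 transcript gave 4, of 15 family probe sets then tested. Of all 16631 probe sets then tested, 1766 were called. That step left out the called NRP1 probe set, the dimmer called SEMA5A one and the dimmer PLXNA2 ones. Without HH16 replicate 1, 5 were called at HH20 against HH16 (4 higher, 1 lower), where 2497 of all probe sets were. Without HH16 replicate 1 and HH18 replicate 2 together, 6 were called at HH20 against HH16 (5 higher, 1 lower). There 1 was called at HH18 against HH16 and 2 at HH20 against HH18. Over all probe sets the counts without these 2 arrays were 2542, 399 and 80. In both fits the lower call at HH20 against HH16 was the next-to-brightest PLXNA2 probe set. With only the 6 arrays compared, 2 were called at HH20 against HH18, where 108 of all probe sets were. Leaving out 1 array at a time gave 5 to 9, 1 to 4 and 0 to 2 calls. The calls over all probe sets then ranged from 1417 to 3206, 403 to 1003 and 23 to 129. The correlation of deviations was -0.13 to 0.06 over the 9 pairs of arrays of different stages with the same replicate number. Over pairs of different stages and different numbers it was -0.18 to 0.14. Whether samples were paired by day is not given in the labels and cannot be read from these values. With the replicate block 8, 2 and 1 family probe sets were called, 7 of the 8 the same. Under the block PLXNB3 and GPC1 (adjusted p = 0.069 and 0.051), and at HH18 PLXND1, RAC1 and CHN1 (0.064, 0.055 and 0.068), missed the threshold. Dim probe sets limit SEMA3C, SEMA3E and NRP2.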
